A study of Mus musculus with 6 samples.

Results

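The genes described here are 8 transcription factor genes of adipocyte formation and fat synthesis, *Pparg*, *Ppara*, *Ppard*, *Rxra*, *Nr1h3*, *Mlxipl*, *Srebf1*, and *Ebf2*. They were chosen by gene name from the 4864 genes of the deposited expression table that were analysed here, and all 8 were found. Their RNA was measured by RNA-seq of poly(A) RNA from wild-type (WT) adipose-derived stem cells (ADSCs), which are mesenchymal precursors from mouse subcutaneous adipose tissue. In the study's methods the donors were male C57BL/6J mice, and both groups shared a differentiation medium with dexamethasone, insulin, 3-isobutyl-1-methylxanthine, indomethacin, and triiodothyronine. The vehicle group (n = 3, labelled Control) was differentiated with vehicle alone, and the NJT-2 group (n = 3) was differentiated with NJT-2 (saikosaponin A), a plant saponin that the study describes as a PPARγ partial agonist. The labels give no dose, harvest day, or donor for the libraries, nor do they say whether replicates were separate cultures, so the p-values measure only the spread among these libraries.

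Peroxisome proliferator-activated receptors (PPARs) are nuclear receptors that bind DNA with a retinoid X receptor (RXR) as partner and switch on genes of lipid uptake, storage, and oxidation when fatty acids or drugs bind them. PPARγ, the product of *Pparg*, is required for fat cell formation, and its level rises during differentiation through a loop with C/EBP factors. Liver X receptor α (LXRα, the product of *Nr1h3*) is an oxysterol receptor that also pairs with RXR, and SREBP-1 (*Srebf1*) and the carbohydrate response element-binding protein ChREBP (*Mlxipl*) drive the genes of fatty acid synthesis in response to insulin and glucose. EBF2 marks brown and beige fat precursors and works with PPARγ at thermogenic genes.

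Total counts over the genes in the table ranged from 16093037 to 28929673 per library, or 27.7% to 32.5% of the library totals implied by the deposited values. Levels are given as FPKM, a count scaled to gene length and library size, so that genes can be set beside each other. The counts were tested with edgeR's quasi-likelihood test over the 3705 genes whose FPKM averaged 0.5 or more across libraries. Calls needed an adjusted p below 0.05 together with a log2 fold change beyond 1 in either direction. Vehicle replicate 1 and NJT-2 replicate 2 stood apart from the other libraries of their groups. The chi-square per gene was at least 965 between vehicle replicate 1 and the other vehicle libraries, against 389 between those, and at least 1070 between NJT-2 replicate 2 and the other NJT-2 libraries, against 48.4 between those. Mature adipocyte markers, with 7 of 12 in the table, summed to between 75.1 and 102.6 FPKM in vehicle and between 466.6 and 1641 FPKM in NJT-2, and the adipokine gene *Adipoq* was at 0.50 FPKM or less in every vehicle library. NJT-2 replicate 2 had 31.6% of the adipocyte marker sum of NJT-2 replicates 1 and 3. Preadipocyte and fibroblast markers (6 of 18) were present in both groups, at 227.5 to 999.9 FPKM in vehicle and 443.9 to 489.4 FPKM in NJT-2, sums made up largely of *Col1a1*, which was at 118 to 691.4 FPKM in vehicle and 376.1 to 407.9 FPKM in NJT-2. Of the 6, 5 had negative log2 fold changes, with a median of -0.88. *Pi16* was called lower, with means of 18.1 and 1.55 FPKM (log2 fold change -3.83, adjusted p = 0.027 by edgeR), and *Pdgfrb* (-1.35) and *Dcn* (-1.85) were lower at an unadjusted p under 0.05. The sums of macrophage markers (7 of 18) were 10.03 to 13.1 against 32.2 to 62.6 FPKM, and those of smooth muscle markers (3 of 10) were 11.3 to 13.8 against 2.72 to 4.05 FPKM. Endothelial markers (4 of 12) reached at most 2.92 FPKM, and the single Schwann cell (*Gfap*) and skeletal muscle (*Pvalb*) markers in the table at most 2.11 and 3.07 FPKM. No marker in the table was at 0 in all libraries.

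*Mlxipl* rose in the NJT-2 group and was the only 1 of the 7 tested members to be called. Of all tested genes, 0.567% were called higher and 0.702% in either direction. *Pparg*, *Nr1h3*, *Mlxipl*, and *Ebf2* had higher FPKM values in every NJT-2 library than in any vehicle library, as had 14.4% of all tested genes. *Ppara*, which lay under the filter on low values, showed the same separation. The groups overlapped for *Ppard*, *Rxra*, and *Srebf1*. In bulk RNA, a difference in the number of adipocytes and a difference in RNA per cell cannot be told apart, and this holds for every comparison below. Beside the members, the adipocyte marker sum given above was higher in NJT-2. The sums of the precursor markers overlapped between groups. Among those markers *Pi16*, *Pdgfrb*, and *Dcn* had lower fitted values in NJT-2, and *Ngfr* had a higher value (log2 fold change 1.29). The part of adipocytes or precursors in the members' values was not tested.

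**Figure D1:**
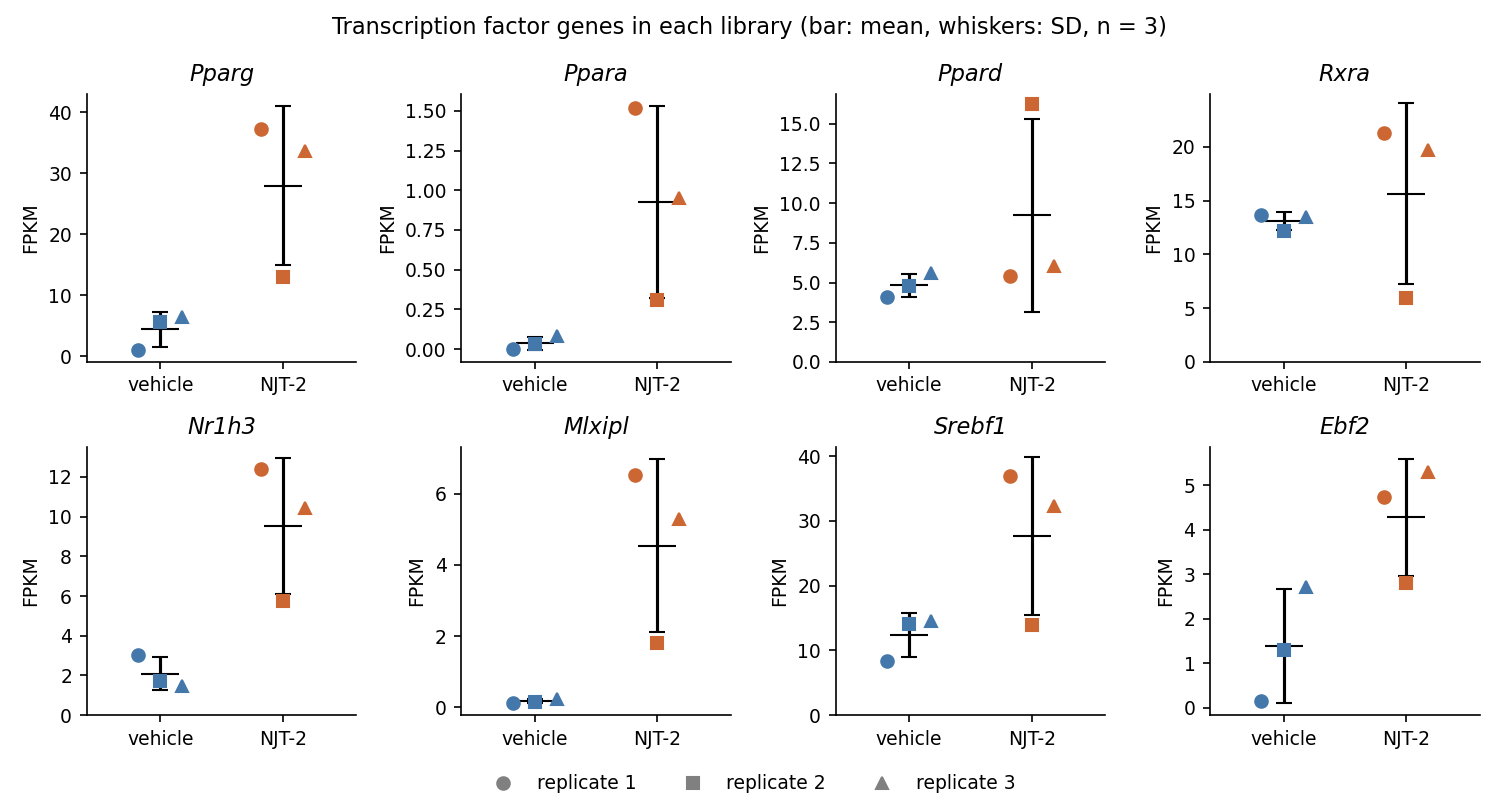
FPKM (vertical axis, linear, own scale per panel) of each of the 8 transcription factor genes in the 3 vehicle and 3 NJT-2 libraries, with replicates 1, 2, and 3 as circle, square, and triangle, a bar at the group mean, and whiskers of 1 SD. NJT-2 replicate 2 is the lowest NJT-2 library for 7 of the 8 genes and the highest for *Ppard*, at 16.3 FPKM.

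*Pparg* (ENSMUSG00000000440, chr6:115360951-115490399 on GRCm38, plus strand) was at 1.06, 5.68, and 6.41 FPKM in vehicle replicates 1 to 3 and at 37.3, 13.0, and 33.7 FPKM in NJT-2 replicates 1 to 3. All NJT-2 libraries were above all vehicle libraries, with vehicle replicate 1 at 17.5% of the mean of the other vehicle libraries and NJT-2 replicate 2 at 36.7% of the mean of the other NJT-2 libraries. The means were 4.38 ± 2.90 FPKM in vehicle and 28.0 ± 13.1 FPKM in NJT-2 (SD, n = 3 each). The fitted log2 fold change was 2.63 (SE 0.61, 95% interval 1.21 to 4.04), a 6.17-fold difference. *Pparg* was not called (adjusted p = 0.119 by edgeR) and ranked 89 of the tested genes by p. Without vehicle replicate 1 and NJT-2 replicate 2 the same fit gave a log2 fold change of 2.55 (adjusted p = 0.00196 by edgeR), and 6.88% of tested genes were called higher. Those libraries were picked from these same data for standing apart, and leaving them out narrows the spread by selection. The adjusted p-values of that fit, here and below, are therefore not separate evidence. DESeq2 on all libraries gave an adjusted p of 0.000586. With 1 library left out, the log2 fold change stayed between 2.175 and 2.945, and the adjusted p by edgeR lay between 0.0771 and 0.4. *Pparg* was called under 3 of the 17 alternatives.

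The *Pparg* gene has several promoters, which give the PPARγ1 form found in many tissues and, further downstream, the adipocyte form PPARγ2. RefSeq (GRCm38.p6) lists 3 starts over 60922 bases. The windows of 250 bases before the middle and the last of them, both beside annotated GENCODE transcript starts, are shown because the deposited count sums all starts, so that the use of each start in these libraries is not resolved. Capitals mark, on either strand, the C/EBP-type motif TTGCNNAA, the nuclear receptor site AGGTCA, the E-box CACGTG, the sterol element TCACNCCAC, and the CCAAT box, here and in the windows of *Mlxipl*.
*Pparg* middle start, chr6:115362099-115362348, plus strand: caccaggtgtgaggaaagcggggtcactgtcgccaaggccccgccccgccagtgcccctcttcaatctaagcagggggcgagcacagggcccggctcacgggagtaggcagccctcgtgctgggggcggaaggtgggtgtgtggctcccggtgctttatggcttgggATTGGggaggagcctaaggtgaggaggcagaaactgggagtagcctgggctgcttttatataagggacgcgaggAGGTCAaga
*Pparg* last start, chr6:115421816-115422065, plus strand: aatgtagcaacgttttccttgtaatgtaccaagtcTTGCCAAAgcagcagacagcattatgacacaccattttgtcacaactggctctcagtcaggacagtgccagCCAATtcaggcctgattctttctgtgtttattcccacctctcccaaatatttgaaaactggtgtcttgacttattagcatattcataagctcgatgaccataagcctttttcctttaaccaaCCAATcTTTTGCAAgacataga
The window of the first start, which has no annotated GENCODE transcript start within 100 bases, is not shown and had a GC content of 82.4% and 1 AGGTCA at -28. The middle window had a GC content of 63.6%, with 1 AGGTCA at position -9 from the start and 1 CCAAT box at -83. The last window, before the annotated transcript Pparg-201, had a GC content of 40.8%, with TTGCNNAA at -215 and -16 and CCAAT boxes at -144 and -22. Of 32817 RefSeq windows of this length, 9.57% held TTGCNNAA, 14% held AGGTCA, and 33.8% held a CCAAT box. Copies of AGGTCA repeated in the same direction with 1 base between (DR1) or 4 bases between (DR4) were in 0.0335% and 0.0152% of windows, read on both strands, and in none of the 14 windows of the 7 members that RefSeq covers. A match describes letters only.

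*Ppara* (ENSMUSG00000022383, chr15:85734983-85802819, plus strand) encodes the PPAR of fatty acid oxidation, best known from liver and brown fat. Its counts were 0, 12, and 23 in vehicle and 416, 85, and 255 in NJT-2, which correspond to 0, 0.03, and 0.08 FPKM and to 1.52, 0.31, and 0.95 FPKM. The gene was near its detection limit in vehicle and low but counted in every NJT-2 library. In the fit of all 4821 genes with a count, the log2 fold change was 4.45 (SE 1.28, 95% interval 1.53 to 7.38) and *Ppara* was not called (adjusted p = 0.188 by edgeR), where 0.436% of genes were called higher. The log2 fold change ran from 3.92 to 5.45 with 1 library left out, where the adjusted p by edgeR was 0.123 to 0.508. DESeq2 on the same genes called *Ppara*, with a log2 fold change of 4.55 and an adjusted p of 0.000491. Without the libraries that stood apart, edgeR also called *Ppara* in the fit of all genes (log2 fold change 4.40, adjusted p = 0.0113). The shares of all 4821 genes called in these fits were not computed. Over the 3705 filtered genes, DESeq2 called 4.4% higher, and edgeR without those libraries called 6.88% higher.

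*Ppard* (ENSMUSG00000002250, chr17:28232700-28301474, plus strand) encodes the broadly expressed PPARδ. Its FPKM values were 4.09, 4.76, and 5.59 in vehicle and 5.41, 16.3, and 6.02 in NJT-2. NJT-2 replicates 1 and 3 lay near the top of the vehicle range and just above it, and NJT-2 replicate 2 was at 284.3% of their mean. The log2 fold change was 0.80 (SE 0.50, 95% interval -0.37 to 1.97, adjusted p = 0.388 by edgeR), and it was 0.03 without NJT-2 replicate 2.

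As a share of the summed FPKM of the 3 PPAR genes, *Pparg* took 20.6%, 54.3%, and 53.1% in vehicle and 84.3%, 44.0%, and 82.9% in NJT-2. *Ppard* made up the rest but for a *Ppara* share of at most 0.662% in vehicle and of 1.05% to 3.44% in NJT-2. In NJT-2 replicates 1 and 3 the *Pparg* share was above every vehicle library, and in NJT-2 replicate 2 it lay within the vehicle range. The mean share was 42.6 ± 19.1% in vehicle and 70.4 ± 22.9% in NJT-2 (SD, n = 3 each), and the difference was 27.8 percentage points (two-sided exact permutation test, p = 0.3, smallest possible 0.1). It was 16.7 points without vehicle replicate 1 and 41.0 points without NJT-2 replicate 2. The summed FPKM of the PPAR genes was 5.15, 10.5, and 12.1 in vehicle and 44.2, 29.6, and 40.7 in NJT-2, with no overlap.

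**Figure D2:**
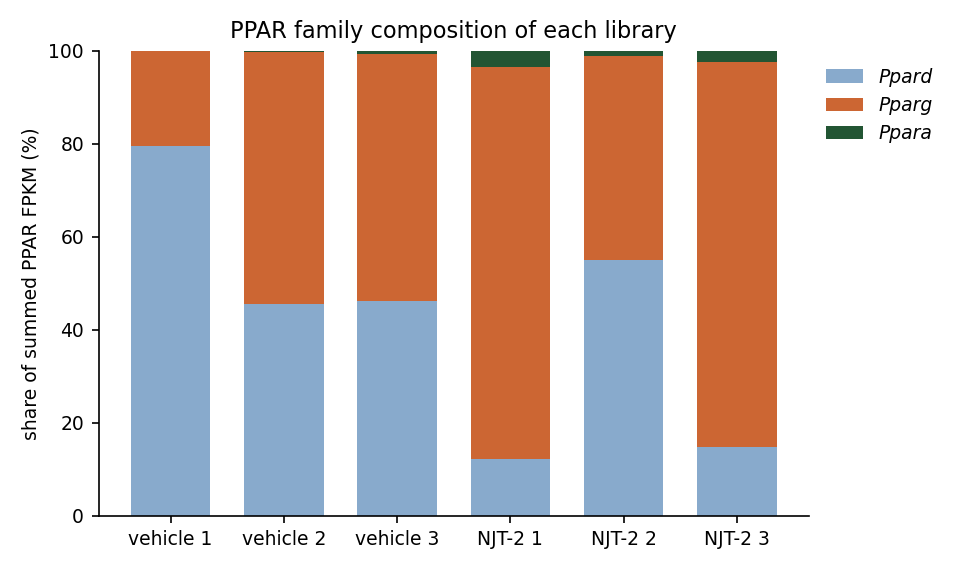
Stacked bars of the share (%) of the summed FPKM of the 3 PPAR genes taken by *Ppard*, *Pparg*, and *Ppara* in each of the 6 libraries. *Pparg* takes 20.6% to 54.3% in the vehicle libraries, 44.0% in NJT-2 replicate 2, and 84.3% and 82.9% in the other NJT-2 libraries.

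*Rxra* (ENSMUSG00000015846, chr2:27676440-27762957, plus strand), the gene of the RXRα partner of the PPARs and LXRs, was at 13.7, 12.1, and 13.5 FPKM in vehicle, the narrowest range of the members relative to its level. In NJT-2 it was at 21.3, 5.95, and 19.7 FPKM, so that replicates 1 and 3 were above and replicate 2 below all vehicle libraries. The log2 fold change was 0.01 (SE 0.49, 95% interval -1.14 to 1.15, adjusted p = 0.995 by edgeR), and its sign depended on the setting. Without vehicle replicate 1 and NJT-2 replicate 2 it was 0.68 with an adjusted p of 0.0454 by the same test, under the fold limit. On all libraries, limma voom with quality weights for the libraries gave 0.67 (adjusted p = 0.00539), also under the fold limit. That method called 19.6% of all tested genes in either direction.

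*Rxrg*, another RXR gene in the table, was looked at after its values were seen. It had 0 counts in every vehicle library and 196, 27, and 130 counts in NJT-2. Taking a floor of 3 counts for each vehicle library, the NJT-2 mean of *Rxrg* was at least 39.3-fold above the vehicle mean. Without NJT-2 replicate 1 it was at least 26.5-fold above. These bounds compare group means, and the bound for NJT-2 replicate 2 alone, at 27 counts, is lower and was not computed. *Rxrg* lay under the filter on low values. In the fit of all genes with a count its adjusted p was 0.0857 with edgeR and 1.54e-06 with DESeq2.

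*Nr1h3* (ENSMUSG00000002108, chr2:91184061-91202834, minus strand) was at 3.05, 1.74, and 1.49 FPKM in vehicle and at 12.4, 5.74, and 10.4 FPKM in NJT-2. Every NJT-2 library was above every vehicle library, and vehicle replicate 1 was here the highest of its group. The means were 2.09 ± 0.838 and 9.52 ± 3.42 FPKM (SD, n = 3 each). The log2 fold change was 1.85 (SE 0.56, 95% interval 0.55 to 3.15, adjusted p = 0.185 by edgeR), a 3.60-fold difference. It was 2.53 without vehicle replicate 1 alone (adjusted p = 0.0923 by edgeR) and 2.81 without both libraries that stood apart (adjusted p = 0.00267 by edgeR). LXRα is also abundant in macrophages, whose marker sum was higher in NJT-2 as given above. Of 5 tested macrophage markers 5 had positive values and 1 was called, namely *Adgre1* (log2 fold change 3.23, adjusted p = 0.0408 by edgeR, and up to 0.3 under the alternatives). Another of them, *Csf1r*, hardly differed (log2 fold change 0.03, adjusted p = 0.974 by edgeR). The part of such cells in the *Nr1h3* values was not tested. *Nr1h3* shares 34 exonic bases on the same strand with the annotated gene *Gm13783*.

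The log2 ratio of *Nr1h3* to *Rxra* FPKM, which is free of library scaling, was -2.17, -2.80, and -3.17 in vehicle and -0.78, -0.05, and -0.92 in NJT-2. The ratio was higher in all NJT-2 libraries than in any vehicle library, and it was highest in NJT-2 replicate 2, where *Rxra* was lowest. The means were -2.71 ± 0.51 and -0.58 ± 0.47 (SD, n = 3 each), a difference of 2.13 with p = 0.1 in a two-sided exact permutation test, the smallest p that 3 against 3 libraries allow.

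*Mlxipl* (ENSMUSG00000005373, chr5:135089890-135138382, plus strand), the ChREBP gene, was at 0.14, 0.16, and 0.24 FPKM in vehicle and at 6.51, 1.82, and 5.29 FPKM in NJT-2. The corresponding counts were 46, 79, and 97 against 2561, 710, and 2051. The vehicle libraries were all low and close together, and even NJT-2 replicate 2, at 30.9% of the mean of the other NJT-2 libraries, was far above them. The means were 0.18 ± 0.053 and 4.54 ± 2.43 FPKM (SD, n = 3 each), and the log2 fold change was 4.45 (SE 0.57, 95% interval 3.13 to 5.78), a 21.9-fold rise. *Mlxipl* had an adjusted p of 0.027 by edgeR and ranked 8 among the 3705 tested genes by p. The call depended on single libraries. With 1 library left out, the log2 fold change stayed between 4.11 and 4.81, but the adjusted p exceeded 0.05 without each vehicle replicate in turn (0.0902, 0.243, and 0.0751 for replicates 1 to 3) and without NJT-2 replicate 1 (0.11) or 3 (0.1). Without NJT-2 replicate 2 it was 0.0132, and without both libraries that stood apart it was 0.00125, with a log2 fold change of 4.87. On the log2(FPKM + 1) scale limma gave a log2 fold change of 2.11 and an adjusted p of 0.0536, which ended the call. *Mlxipl* shares 235 exonic bases with *Gm43500* on the opposite strand.

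Mouse *Mlxipl* is known for a first exon upstream of the usual one, from which the short and active form ChREBPβ is made, itself a target of ChREBP. RefSeq lists 2 starts, 17001 bases apart, and the windows before both are shown because the rise of *Mlxipl* is the called result and the deposited count does not tell the starts apart.
*Mlxipl* upstream start, chr5:135089640-135089889, plus strand: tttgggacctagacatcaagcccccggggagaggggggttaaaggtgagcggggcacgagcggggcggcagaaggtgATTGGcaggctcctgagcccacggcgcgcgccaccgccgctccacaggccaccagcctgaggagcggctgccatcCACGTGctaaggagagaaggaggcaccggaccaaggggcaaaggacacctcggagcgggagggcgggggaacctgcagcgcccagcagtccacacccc
*Mlxipl* downstream start, chr5:135106641-135106890, plus strand: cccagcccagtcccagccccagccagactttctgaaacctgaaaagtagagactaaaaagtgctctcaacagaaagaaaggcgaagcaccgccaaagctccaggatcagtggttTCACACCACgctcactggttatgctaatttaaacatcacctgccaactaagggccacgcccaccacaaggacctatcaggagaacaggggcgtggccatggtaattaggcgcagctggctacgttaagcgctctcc
The upstream window had a GC content of 69.2%, with an E-box CACGTG at -98 and a CCAAT box at -173. The downstream window had a GC content of 53.2% and held TCACNCCAC at -136. CACGTG was in 6.02% and TCACNCCAC in 1.05% of all RefSeq windows.

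*Srebf1* (ENSMUSG00000020538, chr11:60199089-60222581, minus strand), the gene of the insulin-responsive lipogenic factor SREBP-1, was among the most abundant members, at 8.42, 14.1, and 14.6 FPKM in vehicle and 37.0, 13.9, and 32.2 FPKM in NJT-2. NJT-2 replicates 1 and 3 were above all vehicle libraries, and NJT-2 replicate 2 lay within the vehicle range. The means were 12.4 ± 3.43 and 27.7 ± 12.2 FPKM (SD, n = 3 each). The log2 fold change was 1.003 (SE 0.39, 95% interval 0.10 to 1.902, adjusted p = 0.253 by edgeR). Without the libraries that stood apart it was 1.27 with an adjusted p of 0.00956 by the same test. *Srebf1* shares 66 exonic bases with *Mir6922* on its own strand and 109 with *Rai1* on the other.

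The log2 ratio of *Mlxipl* to *Srebf1*, each with 0.1 FPKM added, was -5.15, -5.78, and -5.43 in vehicle and -2.49, -2.86, and -2.59 in NJT-2. This ratio did not set NJT-2 replicate 2 apart as the levels did, since both genes were low in it. The means were -5.45 ± 0.31 and -2.65 ± 0.20 (SD, n = 3 each), and the difference of 2.81 had p = 0.1 in a two-sided exact permutation test, the smallest possible. Its size depended on the FPKM added, and it was 1.09 with 1 FPKM and 3.34 with 0.01 FPKM. *Mlxipl* was thus below *Srebf1* in every library, and closer to it in all NJT-2 libraries.

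*Ebf2* (ENSMUSG00000022053, chr14:67233292-67430918, plus strand) was at 0.16, 1.29, and 2.72 FPKM in vehicle and 4.73, 2.80, and 5.31 FPKM in NJT-2. The groups did not overlap, though NJT-2 replicate 2 was only just above vehicle replicate 3, and vehicle replicate 1 was at 7.98% of the mean of the other vehicle libraries. The means were 1.39 ± 1.28 and 4.28 ± 1.31 FPKM (SD, n = 3 each). The log2 fold change was 1.62 (SE 0.74, 95% interval -0.10 to 3.33, adjusted p = 0.292 by edgeR) and ranged from 1.07 without vehicle replicate 1 to 2.42 without vehicle replicate 3. *Ebf2* shares 424 exonic bases with *Gm10860* on the opposite strand.

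Set side by side, the fitted log2 fold changes ran from 0.01 for *Rxra* to 4.45 for *Mlxipl*, and no tested member had a negative value. At an unadjusted p under 0.05, *Pparg*, *Nr1h3*, *Mlxipl*, and *Srebf1* were higher in NJT-2, 4 of the 7 tested members, beside 8.04% of all tested genes. Other tests called from 0 to 5 of the tested members. By limma on log2(FPKM + 1) none was called, beside 0.594% of tested genes called higher, and on log2(FPKM + 0.1) only *Mlxipl* was, beside 0.675%. DESeq2 called *Pparg*, *Nr1h3*, and *Mlxipl*, beside 4.4% of tested genes called higher. The limma voom method, which gives libraries weights by their quality, called these and also *Srebf1* and *Ebf2*, beside 10.6%. Leaving out the 2 libraries that stood apart called *Pparg*, *Nr1h3*, *Mlxipl*, and *Srebf1*, beside 6.88% in that fit. *Ppard* and *Rxra* were called under none of the 17 alternatives.

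**Figure D3:**
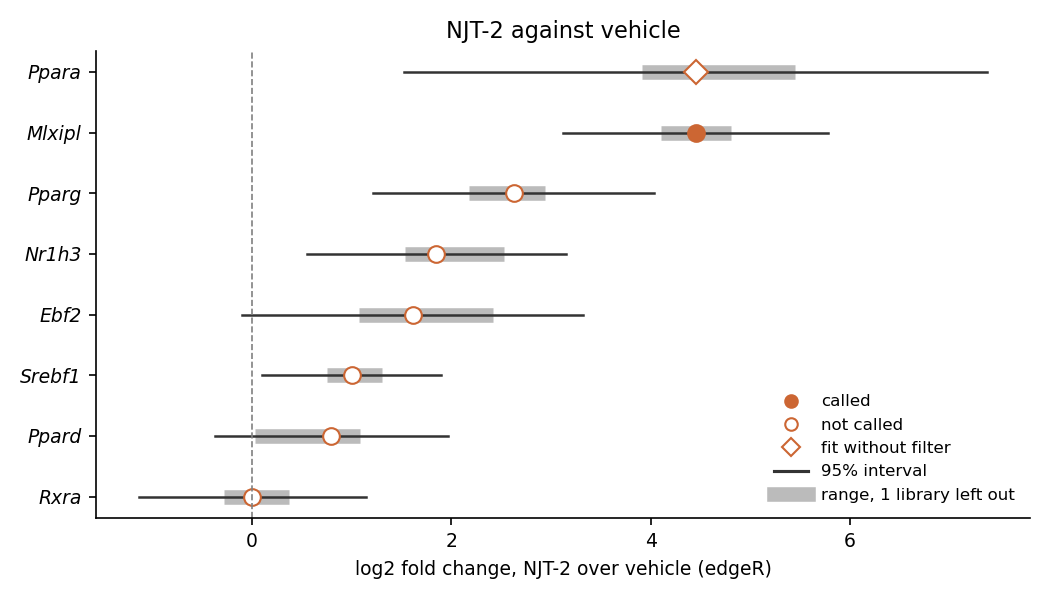
Log2 fold change of NJT-2 over vehicle from edgeR (horizontal axis) for the 8 genes, with black lines for the 95% interval and grey bars for the range with 1 library left out, filled if called, and a diamond for *Ppara* in the fit of all genes with a count. *Mlxipl* (4.45) is the only called member, and the intervals of *Ebf2*, *Ppard*, and *Rxra* include 0.

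NJT-2 replicate 2 was the lowest NJT-2 library for 7 of the 8 members, as it was for 58.1% of tested genes. Vehicle replicate 1 was the lowest vehicle library for 6 of the 8, as for 66.2% of tested genes, with *Rxra* and *Nr1h3* as the members for which it was the highest. The order of the mean levels in vehicle was *Rxra*, *Srebf1*, *Ppard*, *Pparg*, *Nr1h3*, *Ebf2*, *Mlxipl*, and *Ppara*. In NJT-2 the order was *Pparg*, *Srebf1*, *Rxra*, *Nr1h3*, *Ppard*, *Mlxipl*, *Ebf2*, and *Ppara*. *Pparg*, at a mean of 4.38 FPKM in vehicle, had the highest mean of the members in NJT-2, at 28.0 FPKM. Neighbours in these orders had overlapping ranges over the 3 libraries, except *Srebf1* and *Ppard* and also *Mlxipl* and *Ppara* in vehicle, and *Ebf2* and *Ppara* in NJT-2.

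The pathway around the members was described by gene lists, each read beside all tested genes, whose median log2 fold change was 0.02. Of 49 nuclear receptor genes 25 were in the table and 15 tested, 4 of them members, with a median of 0.75. None was called by edgeR or by limma on log2(FPKM + 1), and 4 were higher and 2 lower at an unadjusted p under 0.05, which 17.8% of all tested genes passed. DESeq2 called 3 and voom 7 of the 15, beside 7.8% and 19.6% of all tested genes called in either direction. Those higher were *Pparg*, *Nr1h3*, and the clock repressors *Nr1d1* (0.75) and *Nr1d2* (1.18), and those lower were the retinoic acid receptor gene *Rarg* (-1.21) and the vitamin D receptor gene *Vdr* (-1.25), of which *Nr1d1*, *Nr1d2*, and *Vdr* were named after their values were seen.

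Of 10 tested coregulators of nuclear receptors, from a list of 28, 8 had positive values, with a median of 0.60. None was called by edgeR, while DESeq2 called 2 and voom 4, beside 7.8% and 19.6% of all tested genes, and limma on log2(FPKM + 1) 0. At an unadjusted p under 0.05, 3 were higher, beside 8.04% of all tested genes, namely the coactivator *Ncoa1* (log2 fold change 1.77), the corepressor *Ncor1* (1.49), and the deacetylase *Sirt1* (1.92). Of 14 tested other transcription factors of adipogenesis, from a list of 38, none was called by edgeR, DESeq2, or limma on log2(FPKM + 1), none passed an unadjusted p of 0.05, and voom called 1, beside its 19.6% of all tested genes. Their median was 0.40, and -0.01 without the libraries that stood apart. The smallest p in that list was that of *Klf5*, an early adipogenic factor, which was at 3.49 FPKM in NJT-2 replicate 2 and at 0.10 to 0.18 FPKM in each of the other 5 libraries. *Irf3* (-1.05) and *Mef2d* (0.56) followed.

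Of 20 tested PPAR target genes, from a list of 46, 19 had positive values, with a median of 2.59, and 7 rose, beside 0.567% of all tested genes called higher. The fatty acid transporter gene *Cd36* was at 0.13, 0.82, and 2.95 FPKM in vehicle and at 453.7, 206.4, and 400.0 FPKM in NJT-2 (log2 fold change 8.08, adjusted p = 0.0278 by edgeR). *Adipoq* (6.62), the glycerol-3-phosphate dehydrogenase gene *Gpd1* (5.76), the lipase genes *Lipe* (4.25) and *Pnpla2* (3.99), and the lipid droplet gene *Plin4* (3.13) were also called. NJT-2 replicate 2 had 39.4% of the summed level of this list in NJT-2 replicates 1 and 3, beside 36.7% for *Pparg*. Its share was 25.1% to 55.8% for the other members except *Ppard* (284.3%). It was 41.9% for the summed targets of LXR, SREBP-1, and ChREBP and 31.6% for the adipocyte markers, so the value was not particular to *Pparg* or this list. Of these 7 genes, *Adipoq*, *Cd36*, *Gpd1*, *Lipe*, and *Pnpla2* are also on the list of mature adipocyte markers, so the lists are not independent of each other. The count of 7 was 0 without vehicle replicate 1 or 2, 2 without vehicle replicate 3, 1 without NJT-2 replicate 1 or 3, and 8 without NJT-2 replicate 2.

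Of 17 tested targets of LXR, SREBP-1, and ChREBP, from a list of 35, 13 had positive values, with a median of 1.02. Only *Gpd1* was called, beside 0.567% of all tested genes called higher, and it is also on the lists of PPAR targets and mature adipocyte markers. At an unadjusted p under 0.05, 7 were higher and 1, *Fads2* (-1.19), was lower, beside 17.8% of all tested genes in either direction. The cholesterol exporter gene *Abcg1*, an LXR target, was at 0.75, 1.30, and 1.74 FPKM in vehicle and 4.80, 4.99, and 4.12 FPKM in NJT-2, with no drop in NJT-2 replicate 2 (log2 fold change 1.77, adjusted p = 0.0676 by edgeR). *Apoe*, which encodes a lipid carrier, had a log2 fold change of 1.62. Of 5 tested regulators of SREBP and ChREBP, from a list of 17, *Lpin1* was called, beside the same 0.567%. *Lpin1* encodes lipin-1, a phosphatidate phosphatase and coregulator, and was at 1.09, 1.89, and 2.81 FPKM in vehicle and 24.1, 11.2, and 19.4 FPKM in NJT-2 (log2 fold change 3.12, SE 0.40, adjusted p = 0.027 by edgeR). *Mid1ip1* (1.02) and *Insig2* (0.99) were not called. With 1 library left out, each of these 2 lists had 0 calls, except without NJT-2 replicate 2, when the targets had 2 and the regulators 1.

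**Figure D4:**
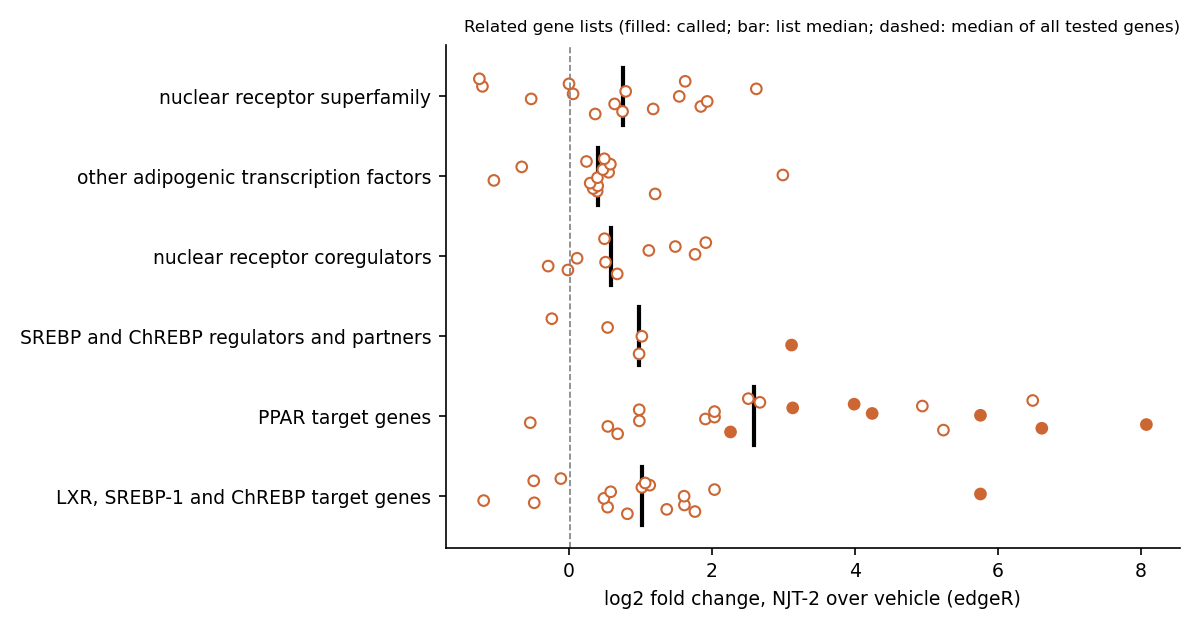
Log2 fold change of NJT-2 over vehicle from edgeR (horizontal axis) for each tested gene of 6 related lists, filled if called, with a bar at the list median and a dashed line at the median of all tested genes (0.02). The PPAR targets hold 7 called genes around a median of 2.59, and the other adipogenic transcription factors hold none around 0.40.

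The genes closest in pattern to a member were found by the root mean square difference of centred log2(FPKM + 1) values over the 6 libraries. For *Pparg* they included *Maoa* (0.169) and *Dlat* (0.188), which encode mitochondrial enzymes, beside a median of 1.40 over all tested genes. For *Mlxipl* they were *Ms4a6d* (0.128), *Pcx* (0.134), and *Adap2* (0.145), beside a median of 1.16. For *Nr1h3* they were the adipokine gene *Retn* (0.067), *Itga7* (0.155), and *Aifm2* (0.237), beside a median of 1.03. *Ppard*, alone among the members in being highest in NJT-2 replicate 2, was closest to *Ankrd33b* (0.066), *Nedd4l* (0.078), and *Wnt9a* (0.124), beside a median of 0.728. Among the members, the closest pair was *Ppara* and *Srebf1* (0.287) and the next *Nr1h3* and *Mlxipl* (0.337), and the farthest was *Pparg* and *Ppard* (1.39). The named genes were picked for the smallest differences and so lie below the medians by selection, and the medians only give the scale. These distances depend on the size of the values as well as on their course, so that low genes such as *Ppara* lie closer to others.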

How the data were processed

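RNA-seq libraries from vehicle (n = 3) and NJT-2 (n = 3) differentiated ADSCs were grouped by their labels. Per the labels, poly(A) RNA was made into dUTP libraries and sequenced in pairs. The submitters' processing notes name cutadapt 1.9, HISAT2 2.2.1, StringTie 2.1.6, DESeq2, edgeR, and GRCm38. The authors deposited raw read counts per gene, not normalized, and FPKM values scaled by gene length and library total. The counting tool, annotation release, and use of strand are not given in the sources used here, so reads in exons shared with another gene are uncertain. Of 4865 lines in the table, 4864 were complete and 1 was left out. These are the first genes by Ensembl number, 4864 of the 55450 in GENCODE M21, and other genes were not analysed here.

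Counts were tested with edgeR 4.0.16 in R 4.3.3 (TMM normalization on the table's totals, quasi-likelihood test, Benjamini-Hochberg adjustment over 3705 genes). The common biological coefficient of variation was 0.504. The standard error is the log2 fold change divided by the square root of F. Ratios were compared by exact permutation over 20 assignments with scipy 1.17.1. The fit was also run on simulated counts drawn with the same spread in every library. That run does not cover libraries that stand apart, as some did here. Named genes were the 8 members, per list the called genes up to 6 and otherwise the 3 with the smallest p, and the 3 nearest patterns of 4 members, with exceptions named in the text, and some of these genes are not reported here. The members and lists were chosen with earlier results of these data known. Alternatives were DESeq2 1.42.0, limma 3.58.1 on FPKM and with voom weights, other scalings and filters, a replicate block, and libraries left out. The fits of *Ppara* without the filter, beyond the planned one, were added after seeing the data. Promoter windows are from RefSeq (GRCm38.p6), with no entry used for *Ebf2*.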

Additional observations from a re-analysis of the deposited data

How the results depend on the processing

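With 3 libraries per group and a wide spread, member calls changed with the tool and with single libraries, and none changed with the other edgeR scalings or filters. The number of members called, 1, was 3 with DESeq2, 0 with limma on log2(FPKM + 1), 5 with voom, 4 without vehicle replicate 1 and NJT-2 replicate 2 together, and 0 to 1 with 1 library left out. All genes called higher, 21, became 163 with DESeq2, 392 with voom, 43 with the replicate block, 255 without both libraries, and 0 to 56 with 1 library left out. Genes called lower, 5, became 126 with DESeq2, 9 with upper-quartile factors, 9 with no filter, 8 at a mean FPKM of at least 1, 9 with at least 10 counts in every library, 10 with each limma fit on FPKM, 335 with voom, 14 with the replicate block, 227 without both libraries, and 0 to 19 with 1 left out.

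With DESeq2, voom, and both libraries left out, in this order, nuclear receptors called went from 0 to 3, 7, and 3, coregulators from 0 to 2, 4, and 1, PPAR targets from 7 to 13, 18, and 16 (0 to 8 with 1 library left out), and the targets of LXR, SREBP-1, and ChREBP from 1 to 4, 11, and 9 (0 to 2). With voom and with both libraries left out, other adipogenic factors went from 0 to 1 and 1, and SREBP and ChREBP regulators from 1 to 2 and 2 (0 to 1). The cause of these changes was not tested. The log2 fold change of *Rxra* turned negative with upper-quartile factors (-0.0015), no filter (-0.015), the replicate block (-0.12), and without vehicle replicate 2 (-0.15) or 3 (-0.13) or NJT-2 replicate 1 (-0.28) or 3 (-0.17), within a range of -0.28 to 0.38 with 1 library left out. The other members kept their direction under every alternative run, though *Ppard* was at 0.03 without NJT-2 replicate 2, *Nr1h3* reached 2.81 without both libraries, and *Mlxipl* was 2.11 on the log2(FPKM + 1) scale (adjusted p = 0.0536, limma). The implied library totals and the limma fits moved the median of all genes to 0.16, 0.14, and 0.17. Whether replicate numbers pair the samples is not given in the labels. Same-numbered libraries deviated from their group means with correlations of 0.191, -0.036, and -0.170, and not every library correlated best with its own number. These correlations cannot decide whether the numbers pair samples, since vehicle replicate 1 and NJT-2 replicate 2 stood apart. Over the filtered genes, the replicate block changed no member call, with *Mlxipl* again the 1 called (adjusted p = 0.00267 by edgeR). *Pparg* had an adjusted p of 0.0524 by edgeR in that fit. Over all genes with a count, the block also called *Pparg* (log2 fold change 2.65, adjusted p = 0.00989 by edgeR). That fit was added after seeing the data, and its share of all genes called was not computed. Vehicle counts of *Ppara* (0 to 23) limit what can be said of its size.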
